A study of Mus musculus with 4 samples.

Results

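Tenm4 encodes teneurin-4, a large single-pass membrane protein, and the circular RNAs (circRNAs) made from this gene were followed in cultured primary articular chondrocytes of the mouse, the cell type of joint cartilage. A circRNA was counted as a Tenm4 circle when both ends of its back-splice junction lay inside the RefSeq span of the gene on chromosome 7 of mm10 (96171244 to 96911093, 739.85 kb), with a tolerance of 1 bp. This gave 49 circles with 5249 junction reads, of 40909 circRNAs and 4278181 reads in all. The gene had been chosen because its circles had fewer reads with interleukin-1β (IL-1β), so every comparison of the treatments below is a description and carries no test. There were 2 control libraries and 2 libraries from cells given 10 ng/ml recombinant human IL-1β, an inflammatory cytokine, for 24 h. The labels give passage 1 to 3 and 24 h of plating, before any IL-1β, for all libraries. The treatment protocol in the labels is the same for all samples, and the controls were told apart by their source label. The labels name no mouse strain, age or genotype. Nor do they give the culture or animal behind each library, so replicate spread here may be technical only. RNA was depleted of ribosomal RNA and digested with RNase R, which removes most linear RNA, and libraries were strand-specific. The tables analysed list circles only.

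Teneurins sit in the membranes of neighbouring cells, where they bind each other and the latrophilins, a family of adhesion receptors. Teneurin-4 is best known from the nervous system, where it promotes the maturation of oligodendrocytes and acts through focal adhesion kinase. In chondrogenic cell lines it is known to restrain differentiation into cartilage cells. A circRNA forms when a splice donor is joined back to an acceptor upstream of it, so each circle is defined by a start and an end in the gene.

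The sequences just before the 2 transcript starts that RefSeq lists for Tenm4 (GRCm38.p6, the mm10 assembly) are shown because every circle lies downstream of both. They cover chr7:96170994-96171243 and chr7:96211421-96211670 on the plus strand, 250 bases each, 5′ to 3′.
Start 1: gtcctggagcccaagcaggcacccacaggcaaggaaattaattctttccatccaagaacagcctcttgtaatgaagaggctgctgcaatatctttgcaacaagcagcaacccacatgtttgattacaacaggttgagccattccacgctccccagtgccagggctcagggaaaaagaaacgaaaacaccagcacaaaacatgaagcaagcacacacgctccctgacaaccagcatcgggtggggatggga
Start 2: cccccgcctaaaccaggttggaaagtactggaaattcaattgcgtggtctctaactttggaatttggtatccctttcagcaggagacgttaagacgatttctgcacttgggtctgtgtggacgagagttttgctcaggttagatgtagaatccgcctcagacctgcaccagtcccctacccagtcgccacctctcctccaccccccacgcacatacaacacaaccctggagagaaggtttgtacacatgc
On either strand, neither holds a κB motif, the AP-1 letters TGANTCA, the TATA letters TATAAA or the GC box GGGCGG, and no letters are therefore in capitals. Among 32851 listed promoter entries these motifs occur in 45.8%, 6.75%, 12.4% and 32.7% of windows of this length.

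The gene also hosts miRNAs between its start and its first circle. The arms of miR-708, from RefSeq, are printed with the seed (bases 2 to 8) in capitals, to mark a second kind of RNA from the same locus that the circles do not contain.
mmu-miR-708-5p: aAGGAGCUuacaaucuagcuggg
mmu-miR-708-3p: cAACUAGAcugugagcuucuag
The 5p arm lies at chr7:96249450-96249472, 78.2 kb into the gene, and 0 of the 49 circles span it. miRNA levels were not analysed here.

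Circles came from the downstream part of the gene. The first circle start was at 96355356, 184 kb from the gene start, and the last end was 3.22 kb before the gene end. Of the 49 circles 48 lay on the plus strand and 1, with 9 reads, on the minus strand. No circRNA crossed either edge of the gene, so 0 circles lay just outside the rule. No pair of Tenm4 junctions lay within 5 nt of each other at both ends.

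The circles fell into a crowded middle stretch and sparse flanks. The middle stretch, from 96694770 to 96868104, held 34 circles and 92.4% of the Tenm4 reads. Upstream of it 11 circles held 6.42%, and 3 circles near the 3′ end held 1.16%. A single circle with 3 reads, all in control 1, bridged the upstream and middle groups.

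**Figure D1:**
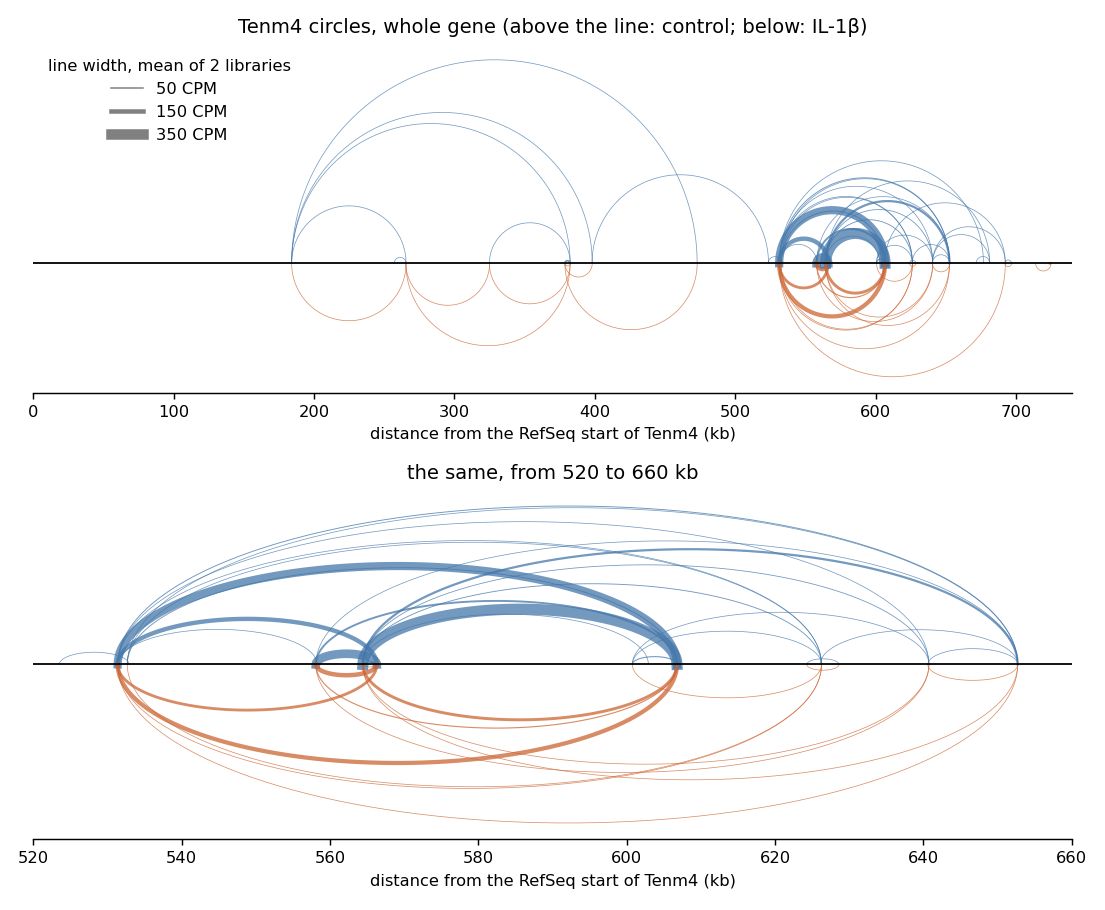
Each arc joins the start and end of a Tenm4 circle, at its distance in kb from the RefSeq start of the gene, with control means above the line and IL-1β means below. Line width follows the mean CPM of 2 libraries except for the lowest levels, which share a minimum width, and arc height has no scale. The thickest arcs join starts at 531.4, 558.1 and 564.4 kb to ends at 566.3 and 606.8 kb, and they are thinner below the line.

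Tenm4 circles were long. Their median span between the ends was 57504 bp, against 10570 bp for all circRNAs of the series, and weighted by reads it was 42335 bp. Spans of 100 kb or more made up 11 of 49 circles (22.4%, against 2.90% of all circRNAs). These 11 held 260 reads and stood at 83.7 ± 28.7 CPM in control and 31.3 ± 2.30 CPM with IL-1β (mean ± SD, n = 2 libraries each). CPM is junction reads scaled to the normalised depth of the library. The longest of those with at least 20 reads, circRNA.35821 (96355356 to 96569458), spanned 214103 bp.

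A small set of splice positions was reused. The 49 circles used 21 starts and 21 ends. Of these, 12 starts and 9 ends belonged to 1 circle only. The start at 96702642 was shared by 8 circles with 31.4% of the Tenm4 reads. The start at 96735685 was shared by 7 circles with 30.1%, and the start at 96729349 by 4 circles with 23.4%. On the other side, 6 circles ended at 96823946, 5 at 96778019 and 4 at 96553747. By reads the leading ends were 96778019 with 45.1% and 96737561, used by 3 circles, with 30.9%. At 10 places a start was followed within 300 bp by an end, between 97 and 256 bp away. Exon positions were not analysed here.

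A stretch of 1877 bp from 96735685 to 96737561 was common to most of the output. It lay within the span of 21 circles, which held 87.6% of the Tenm4 reads. Its share was 89.0% in control 1, 86.5% in control 2, 87.1% in IL-1β 1 and 88.7% in IL-1β 2. These shares overlap between the groups. The stretch also formed a circle of its own, circRNA.35847.

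Each leading start was joined to the shared ends in its own proportion. All 6 combinations of the starts 96702642, 96729349 and 96735685 with the ends 96737561 and 96778019 were read, and together they held 73.1% of the Tenm4 reads. From 96735685, reads went to the farther end, 96778019, in 81.2% of cases in control 1 (390 of 480 reads), 94.4% in control 2, 91.9% in IL-1β 1 and 94.4% in IL-1β 2. From 96729349 the same share was 16.2%, 19.7%, 13.3% and 28.2%. From 96702642 it was 60.1%, 69.6%, 59.6% and 60.3%. The ranges of the 3 starts did not overlap in any library.

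These ends were picked after their values were seen, so the shares are a description with no test. The farther end took 90.5% ± 6.26 from 96735685, 62.4% ± 4.79 from 96702642 and 19.3% ± 6.49 from 96729349 (SD, n = 4 libraries). Between 96735685 and 96729349 the difference was 71.1 ± 6.60 percentage points, in the same direction in 4 of 4 libraries. Between 96735685 and 96702642 it was 28.1 ± 6.10 points, and between 96702642 and 96729349 43.1 ± 7.71 points, again in 4 of 4 libraries.

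**Figure D2:**
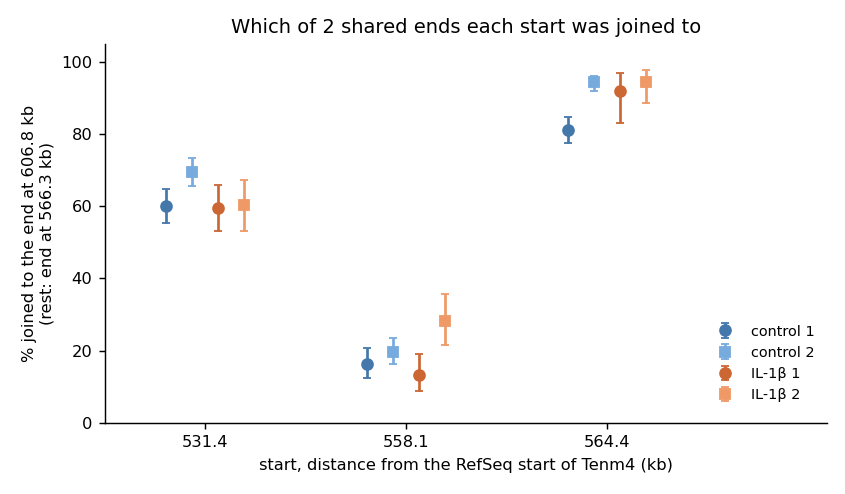
The y axis is the percentage of reads joined to the end at 606.8 kb, out of reads joined to the ends at 566.3 or 606.8 kb, for each of 3 starts (x axis, kb from the RefSeq start of Tenm4). Points are libraries and bars are exact binomial 95% intervals, which cover counting error only; the 3 starts form separate bands in every library.

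The summed output of the gene was lower in both IL-1β libraries. Tenm4 had 1661 junction reads in control 1, 2319 in control 2, 651 in IL-1β 1 and 618 in IL-1β 2. After normalisation over host genes this was 1388 and 1986 CPM in control and 710.1 and 625 CPM with IL-1β. The groups did not overlap, and the controls were farther apart than the IL-1β libraries. In bulk libraries, fewer cells that make a circle and less circle per cell cannot be told apart. The means were 1687 ± 423 CPM and 667 ± 60.2 CPM (SD, n = 2 each), a log2 change of -1.34 ± 0.23 (SE, from edgeR's fit over 4879 hosts). The median log2 change over those hosts was -0.03. Both IL-1β libraries lay below both controls in 18.9% of hosts. The Tenm4 host was not called by edgeR at an adjusted p under 0.05 (0% of hosts were) and was called by DESeq2 (1.43% of hosts were); nothing is read from either, given the choice of the gene. Without control replicate 2 the log2 change was -1.06.

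On the authors' own depth scale, SRPBM, the summed Tenm4 signal was 141 in control 1, 144 in control 2, 54.6 in IL-1β 1 and 46.1 in IL-1β 2. On this scale the controls lay close together, at 142 ± 2.25 against 50.3 ± 6.03 with IL-1β, a 2.83-fold difference of the means. SRPBM summed over all circRNAs was 101537 in control 1, 74734 in control 2, 75093 in IL-1β 1 and 73067 in IL-1β 2. Neither the Tenm4 sums nor the 2.83-fold difference is corrected for these totals. Of all junction reads, Tenm4 took 0.139% and 0.193% in control and 0.0727% and 0.0630% with IL-1β. By that share the controls lay farther apart.

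Of the 49 circles 22 had at least 20 reads over the libraries and were fitted, with 95.6% of the Tenm4 reads. The smallest fitted circle had 21 reads and the largest circle left out had 19. All 22 had a lower fitted level with IL-1β, which is what the gene was chosen for. Among all 15333 fitted circRNAs 51.7% had a lower level. Of the 22, 6 had 0 reads in both IL-1β libraries. These passed the filter on control reads alone and could only be lower, and they also enter the counts and the median below. In 14 of the 22 both IL-1β libraries lay below both controls, against 17.2% of all fitted circRNAs, and 8 overlapped. The log2 change was below -1 in 14 circles, against 23.6% of all. The median log2 change of the 22 was -1.76, or -1.51 with circles at 0 in a group set to their bound, and -0.05 over all fitted circRNAs. At an adjusted p under 0.05, edgeR called 0 of the 22 circles (0.0196% of all fitted circRNAs). It called 9 at an unadjusted p under 0.05 (3.44% of all), and DESeq2 called 4 of the 15 to which it gave an adjusted p (1.21% of all). Nothing is read from these counts, since the rule used the same contrast.

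**Figure D3:**
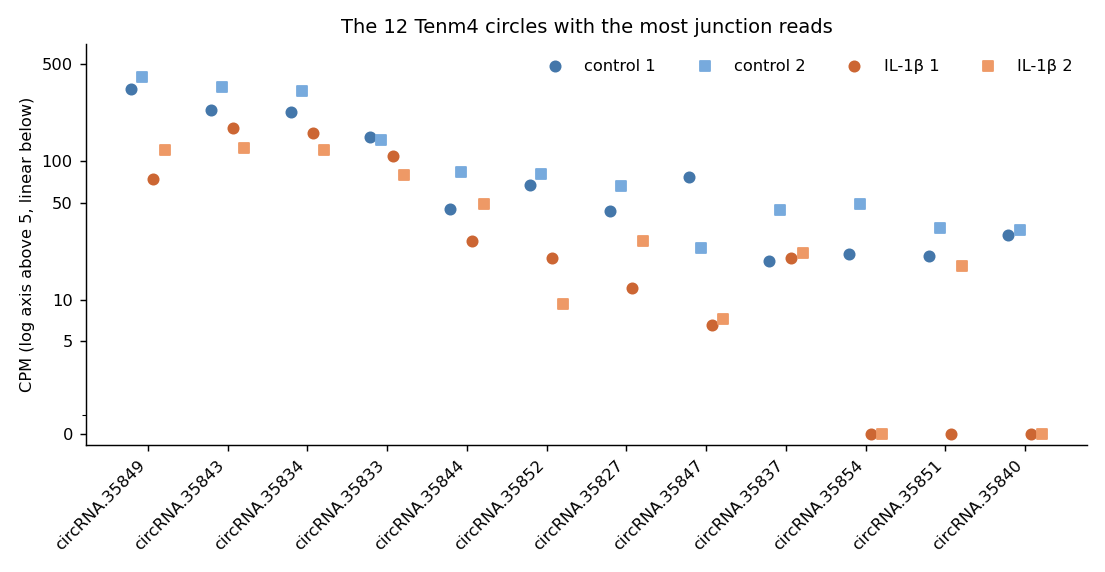
CPM of the 12 Tenm4 circles with the most junction reads (x axis), with 1 point per library; the y axis is logarithmic above 5 CPM and linear below. For circRNA.35844 and circRNA.35837 the groups overlap, and circRNA.35854 and circRNA.35840 are at 0 in both IL-1β libraries.

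The leading circle, circRNA.35849 (96735685 to 96778019, plus strand), held 20.3% of the Tenm4 reads. It stood at 334 and 402 CPM in control and at 74.7 and 120 CPM with IL-1β. Both IL-1β libraries were below both controls, by 3.78-fold between the means, a log2 change of -1.92 ± 0.34 (SE). Its neighbours by abundance differed less. circRNA.35843 (96729349 to 96737561) stood at 235 and 341 CPM in control against 173 and 125 CPM with IL-1β, 1.94-fold lower. circRNA.35834 (96702642 to 96778019) stood at 224 and 322 against 160 and 120 CPM, 1.95-fold lower. The groups did not overlap for either, and IL-1β 1 and control 1 were the closest pair across groups in both. The fourth, circRNA.35833 (96702642 to 96737561), had close controls at 149 and 141 CPM and stood at 109 and 78.9 CPM with IL-1β, 1.54-fold lower.

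Circles that began at 96735685 differed most among the leading starts. Besides the leading circle, circRNA.35852 (96735685 to 96823946) stood at 67.6 and 81.0 CPM in control and at 19.8 and 9.22 CPM with IL-1β, 5.12-fold lower. Its log2 change of -2.35 was -3.02 without IL-1β replicate 1. The short circle circRNA.35847 (96735685 to 96737561) had 90 and 29 reads in control and 6 and 7 with IL-1β. It was 7.32-fold lower in CPM between the means, and its controls lay farther apart in reads than the lower control lay from IL-1β. Its log2 change of -2.85 was -1.80 without control replicate 1. circRNA.35850 (96735685 to 96797505) had 26 and 45 reads in control and 0 in both IL-1β libraries. Against a floor of 3 reads per library it was at least 9.27-fold lower. That bound takes the control mean as observed, and from control 1 alone it was 6.99-fold. circRNA.35851 (96735685 to 96811979) had 24 and 40 reads in control, 0 in IL-1β 1 and 17 in IL-1β 2, so the IL-1β libraries disagreed. Its log2 change of -1.60 was -0.64 without IL-1β replicate 1, and without IL-1β replicate 2 the remaining IL-1β library is at 0.

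Summed over its 7 circles, the start at 96735685 gave 542 and 576 CPM in control and 101 and 154 CPM with IL-1β, a 4.39-fold difference of the means. The other 42 Tenm4 circles together gave 880.0 and 1322 CPM in control and 614 and 480 CPM with IL-1β, a 2.01-fold difference. The start at 96702642 gave 405 and 562 against 302 and 220 CPM, and the start at 96729349 gave 281 and 438 against 213 and 174 CPM, each 1.85-fold lower. No start of these 3 had overlapping groups. Among all fitted circRNAs, both IL-1β libraries lay below both controls in 17.2%, and the gene was chosen for being lower.

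As a share of Tenm4 reads, 96735685 took 38.1% in control 1 (exact binomial 95% interval 35.8 to 40.5), 30.4% in control 2 (28.5 to 32.3), 14.1% in IL-1β 1 (11.5 to 17.0) and 24.3% in IL-1β 2 (20.9 to 27.9). The start at 96702642 took 28.5% and 29.6% in control and 42.2% and 34.8% with IL-1β, and the start at 96729349 took 19.7% and 23.1% against 29.8% and 27.5%. The groups did not overlap for any of the 3 starts. How often such shares separate in other hosts was not counted. The libraries of a group differed from each other beyond counting error at 96735685. PCR copies are not separate molecules, and these intervals hold only the error of counting. Shares of 1 total are not independent of each other. The next 3 starts by reads did not all separate the groups. The start at 96550012 took 3.07% and 3.49% in control against 2.30% and 4.69% with IL-1β, so its groups overlapped. With fewer reads, 96703926 took 2.65% and 3.84% in control against 0.922% and 2.10% with IL-1β, with no overlap. The start at 96355356 took 1.57% and 3.36% against 1.08% and 1.29%, also with no overlap. The exact binomial 95% intervals of control 1 and IL-1β 2 did overlap at both starts. They were 1.93 to 3.54% and 1.12 to 3.57% at 96703926, and 1.025 to 2.29% and 0.560 to 2.53% at 96355356. In CPM 96703926 and 96355356 were 5.55-fold and 5.42-fold lower between the means.

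**Figure D4:**
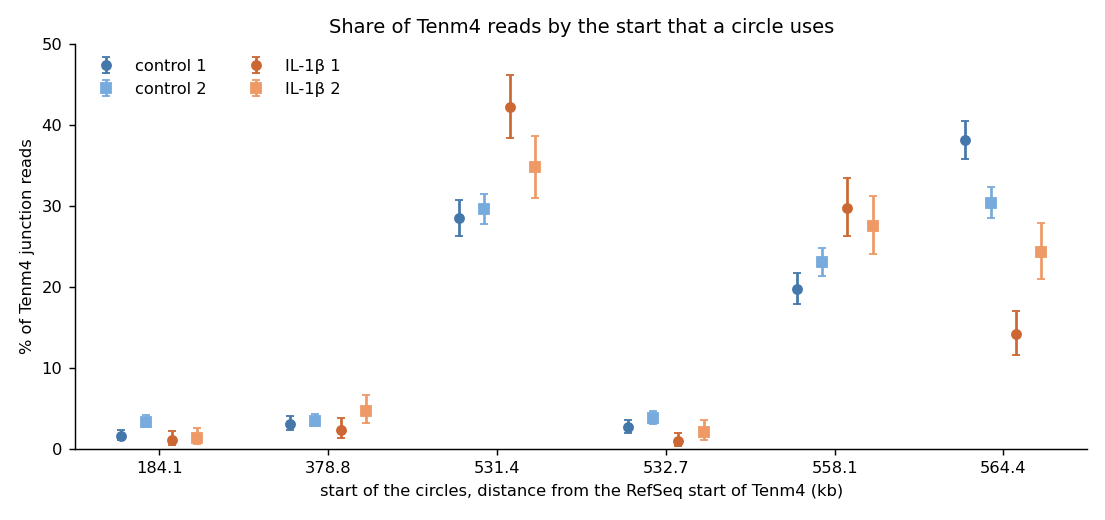
Percentage of Tenm4 junction reads (y axis) in circles that use each of the 6 starts with the most reads, ordered by distance from the RefSeq start of Tenm4 (x axis, kb). Points are libraries and bars are exact binomial 95% intervals; at 564.4 kb (position 96735685) both IL-1β libraries lie below both controls, and at 531.4 and 558.1 kb above them.

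Further circles of the middle stretch were read only or mainly in control. The circle circRNA.35854 (96772004 to 96778019) had 25 and 60 reads in control and 0 in both IL-1β libraries, at least 11.1-fold lower, or at least 6.72-fold lower from control 1 alone. The circle circRNA.35840 (96703926 to 96778019) had 34 and 39 reads and 0 in both IL-1β libraries, at least 9.58-fold lower. In all, 5 of the 22 fitted circles had reads in both controls and 0 in both IL-1β libraries, which held for 4.69% of all fitted circRNAs. These 5 passed the filter on control reads alone, so their direction was fixed by it. The bounds cover only the counting error behind 0 reads with IL-1β. They take the control mean as observed, without its counting error or the spread between controls. A sixth, circRNA.35836 (96702642 to 96811979), had all its 21 reads in control 2.

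Overlapping groups were seen among circles of several starts. The circle circRNA.35837 (96702642 to 96823946) stood at 18.8 and 44.2 CPM in control and at 19.8 and 21.5 CPM with IL-1β, so control 1 was the lowest of the 4 libraries. The circle circRNA.35841 (96703926 to 96797505) had 0 and 50 reads in control and 6 and 13 with IL-1β. For circRNA.35835 (96702642 to 96797505) the reads were 8 and 39 against 9 and 0. In circRNA.35844 (96729349 to 96778019) IL-1β 2, at 49.2 CPM, was above control 1, at 45.4 CPM. In each of these 4 circles control 2 was the highest library.

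In the upstream group, circRNA.35827 (96550012 to 96553747) led with 43.7 and 66.3 CPM in control and 12.1 and 26.6 CPM with IL-1β, 2.84-fold lower with no overlap. Its log2 change was -2.20 without IL-1β replicate 2 and -1.07 without IL-1β replicate 1. The start at 96355356 gave 3 fitted circles. Of these, circRNA.35820 (96355356 to 96553747) had 16 and 38 reads in control and circRNA.35821 had 8 and 14, with 0 in both IL-1β libraries for each. The third, circRNA.35819 (96355356 to 96436858), had 0 and 26 reads in control and 7 and 8 with IL-1β. The whole upstream group stood at 65.9 and 138 CPM in control and at 48.4 and 48.2 CPM with IL-1β. Its share of the Tenm4 reads, 4.64% and 7.29% in control and 6.76% and 7.61% with IL-1β, overlapped between the groups.

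The 3 circles nearest the 3′ end together stood at 8.56 and 19.6 CPM in control and at 18.7 and 10.2 CPM with IL-1β, with overlapping groups. The only fitted one, circRNA.35866 (96894653 to 96896267), had 10 and 24 reads in control and 0 and 5 with IL-1β, with no overlap. The other circles were each read in 1 IL-1β library only: circRNA.35865 (96885317 to 96896267) had 17 reads in IL-1β 1, and circRNA.35867 (96907536 to 96907870) had 5 in IL-1β 2.

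The 27 circles under 20 reads held 232 reads and gave no consistent direction. Their sum was 68.5 and 54.0 CPM in control and 74.7 and 18.4 CPM with IL-1β, so IL-1β 1 was the highest and IL-1β 2 the lowest library. Fitted without a filter on reads, 16 of the 27 were lower and 11 higher. The circle circRNA.35825 (96436760 to 96553747) had 0 reads in both controls and 9 and 8 with IL-1β.

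Few circles were seen in every library. Of the 49 circles 10 were read in all 4 libraries, with 83.3% of the Tenm4 reads (10 of the 22 fitted, against 44.8% of all fitted circRNAs), and 24 in a single library, with 3.81%. The single-library circles had at most 21 reads, and 10 were in control 1, 7 in control 2, 4 in IL-1β 1 and 3 in IL-1β 2. The controls held 29 and 30 Tenm4 circles and the IL-1β libraries 21 and 19. Over the whole series the controls held 20662 and 17960 circRNAs and the IL-1β libraries 17649 and 19317, with overlapping groups. The gene was chosen for fewer reads with IL-1β, so these counts are a description.

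Among hosts, Tenm4 ranked high in circle number. Of 6930 host genes 26 had more circles and 142 had more reads. Its reads were spread over many circles: the leading circle held 20.3%, against a median of 54.8% over 2209 hosts with at least 200 reads, and 2.99% of those hosts had a lower share.

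Of the 4 hosts nearest to Tenm4 in total reads, 3 had overlapping groups and 1, Camk2d, had both IL-1β libraries below both controls, as 18.9% of all hosts had. Notch2, a receptor, stood at 1253 ± 241 CPM in control and 1168 ± 2.41 with IL-1β. Vwa8 stood at 1229 ± 89.6 and 1223 ± 75.9 CPM, the insulin-degrading enzyme gene Ide at 1309 ± 356 and 1131 ± 118, and the calcium-dependent kinase gene Camk2d at 1354 ± 25.8 and 1087 ± 51.5 (SD, n = 2 each). The edgeR log2 changes of these hosts were -0.10, -0.01, -0.21 and -0.32, and none passed (adjusted p from 0.882 to 1.00). Of all 4879 tested hosts, 566 had a lower log2 change than Tenm4. Of the 142 hosts with more reads than Tenm4, 0 had a log2 change as low, and their median was -0.03. The gene was picked for that change, so this is a description.

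No circle was listed for the other teneurin genes, Tenm1, Tenm2 and Tenm3, in any library. Of the latrophilins and the FLRT and UNC5 proteins that bind teneurins or their receptors from the facing cell, 5 of 10 genes had circles and 3 were tested. The latrophilin gene Adgrl2 had 19 circles and stood at 249 ± 23.3 CPM in control and 259 ± 42.1 with IL-1β, an edgeR log2 change of 0.06 ± 0.27 (SE). Adgrl3 stood at 17.3 ± 8.68 and 20.3 ± 24.1 CPM, and the netrin receptor gene Unc5b at 7.52 ± 10.6 and 10.3 ± 5.38. Their groups overlapped. Flrt2 had 9 reads, all in control 1, and Unc5c 6 reads, all in IL-1β 2.

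Of the genes for partners, downstream kinase and cleavage of teneurins, 4 of 5 were tested and Zic1 had no circle. Ptk2, which encodes focal adhesion kinase, had 53 circles and stood at 1220 ± 138 CPM in control and 1048 ± 83.6 with IL-1β, a log2 change of -0.22 ± 0.20, with no overlap between the groups. As in 18.9% of all hosts, both its IL-1β libraries lay below both controls. The protease gene Furin stood at 464 ± 95.5 and 453 ± 0.24 CPM, the dystroglycan gene Dag1 at 125 ± 2.64 and 130 ± 11.6, and the methyl-DNA binding gene Mbd1 at 8.81 ± 8.82 and 4.55 ± 6.43. Over the 18 listed genes, 7 were tested and 0 passed an adjusted p of 0.05 in edgeR, where 0% of all tested hosts passed. None had an unadjusted p under 0.05 (4.55% of all hosts), and 0 passed in DESeq2 (1.43% of hosts with an adjusted p passed). With 2 libraries a group, a difference within the spread between them was not detectable.

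Hosts around the gene were also counted. Of 69 RefSeq genes within 2 Mb of Tenm4, 13 had circles and 10 were tested, 6 with a lower and 4 with a higher edgeR log2 change and a median of -0.03. None passed an adjusted p of 0.05 in edgeR or in DESeq2, and 1 had an unadjusted p under 0.05. That gene was Acer3, an alkaline ceramidase, at 139 ± 61.0 CPM in control and 254 ± 20.3 with IL-1β. The 2 hosts with the most reads there, the kinase gene Pak1 and the autophagy gene Uvrag, stood at 325 ± 6.39 and 359 ± 70.4, and at 323 ± 94.4 and 316 ± 58.0 CPM. Rsf1, a chromatin remodelling subunit, stood at 103 and 123 CPM in control and at 124 and 96.1 CPM with IL-1β. Both IL-1β libraries lay below both controls in 1 of the 10 (18.9% of all hosts) and above them in 3 (17% of all hosts). The first was Clns1a, a chloride channel regulator, at 74.4 and 89.1 CPM against 39.3 and 40.4, and the others were Acer3, Nars2 and Emsy.

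**Figure D5:**
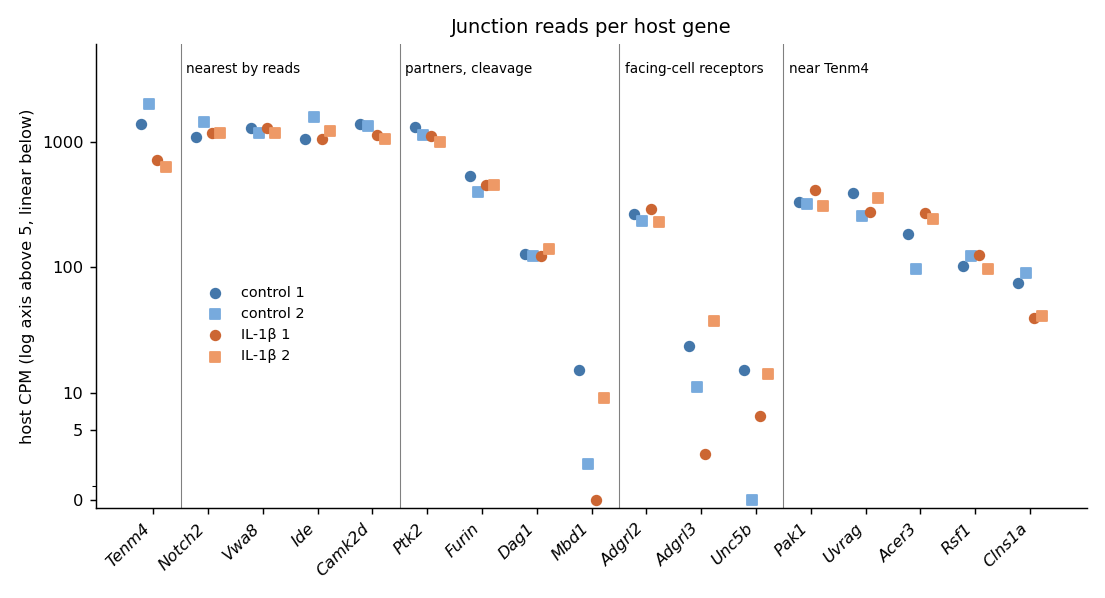
Junction reads per host gene in CPM for each library (y axis logarithmic above 5 CPM, linear below), for Tenm4, the 4 hosts nearest to it in reads, the tested teneurin partner and receptor genes, and the 5 hosts within 2 Mb with the most reads. Tenm4 has both IL-1β libraries below both controls, at 710.1 and 625 against 1388 and 1986 CPM; in most of the other hosts the groups overlap.

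The hosts whose levels ran most like those of Tenm4 over the 4 libraries were Reck, a membrane-anchored inhibitor of metalloproteinases, Srpx, Kif13b, a kinesin motor, Col5a2, a chain of type V collagen, and Cdon, a cell-surface co-receptor. Likeness was the root mean square difference of log2 CPM, each host centred on its own mean, over 2208 hosts with at least 200 reads. It was 0.05 for Reck, 0.08 for Srpx, 0.12 for Kif13b, 0.15 for Col5a2 and 0.16 for Cdon. Reck stood at 101 and 138 CPM in control and 49.1 and 40.4 CPM with IL-1β. With 4 libraries, likeness of this kind describes these libraries only.

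Cartilage regulators were read as circles beside Tenm4, but most marker genes of cartilage gave none. Of 14 chondrogenesis genes 6 were tested and 0 passed in edgeR or DESeq2, with 0 at an unadjusted p under 0.05. Sox5 stood at 211 ± 93.9 CPM in control and 227 ± 37.5 with IL-1β, Sox6 at 106 ± 26.9 and 65.5 ± 1.69, Runx2 at 353 ± 120.3 and 365 ± 1.75, Runx1 at 303 ± 113 and 380.2 ± 67.2, Bmpr1a at 219 ± 24.4 and 172 ± 33.7 and Runx3 at 19.5 ± 6.32 and 32.1 ± 16.1. Of 14 chondrocyte markers 10 had no circle, among them Col2a1, Acan and Sox9. A gene without circles may still be expressed, so these levels do not check the cell type.

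Summed over genes, fibroblast and muscle markers were lower in the IL-1β libraries, as Tenm4 was, but not every gene separated the groups. The 4 of 8 fibroblast markers with circles, Col1a1, Col1a2, Col3a1 and Pdgfra, all had a lower edgeR log2 change with IL-1β (52% of all tested hosts had), and 0 passed in edgeR or DESeq2. Their summed level was 140 and 206 CPM in control and 87.3 and 65.7 CPM with IL-1β, and Thy1, Twist1, Dpp4 and Fap had no circle. Both IL-1β libraries lay below both controls in 2 of the 4, Col1a1 and Pdgfra (18.9% of all hosts). Col1a2, at 40.1 and 112 CPM in control against 40.4 and 5.06 with IL-1β, and Col3a1 had overlapping groups. The part of fibroblast markers in the Tenm4 values was not tested. Markers of osteoblasts, endothelium, macrophages and muscle had circles in 1 of 6, 2 of 6, 1 of 6 and 2 of 5 genes, and 0 passed in edgeR. The summed muscle markers stood at 25.1 and 28.3 CPM in control and at 20.7 and 12.1 CPM with IL-1β. For chondrocyte, osteoblast, endothelial and macrophage markers the summed levels overlapped between the groups.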

How the data were processed

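Junction reads of circRNAs were taken from the table of 4 libraries. Per the file headers, these are the authors' raw junction counts for each circRNA and library. SRPBM columns, per the file headers, hold the same counts as a signal scaled to depth; 1 SRPBM was worth between 11.8 and 16.1 reads, a constant in each library. All 4 single-library tables held the same counts. The submitters' processing notes name Bowtie2 and mm10. Which circRNA caller and filters were used is not given in the sources used here. Junction reads numbered 1198010 and 1203855 in the control libraries, 895774 and 980542 in the others. The limit behind 0 reads was taken as 3 reads, or 2.46 to 3.30 CPM.

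A circle was given a host when both ends lay in exactly 1 coding gene of RefSeq (GRCm38.p6), or failing that exactly 1 other gene. Counts of circRNAs and of hosts with at least 20 reads were fitted by edgeR's quasi-likelihood test (version 4.0.16, R 4.3.3), with TMM factors and group as the only term, and adjusted by Benjamini-Hochberg over each table. The fit was tested on simulated data with known changes, with trended dispersions (chosen after a first run) and with per-feature ones. For circRNAs it missed nearly all changed features at the smaller fold simulated and most at the larger, and most of its calls were of unchanged circRNAs, so a call or missing call of a single circRNA carries little weight. For hosts most calls were right, and most changed hosts were missed. DESeq2 1.42.0 was an alternative. The SE was obtained from the log2 change and its F statistic. Other values came from Python 3.11.15 with scipy 1.17.1. CPM of circles and of hosts use slightly different normalisation factors. The gene and the lists were chosen with earlier results of these data known. Named were the 12 circles with the most reads, further circles above 20 reads, the most shared starts and ends, the 5 hosts most like Tenm4, the 4 nearest by reads, the partner and chondrogenesis genes measured and the 5 nearby hosts with the most reads. circRNA.35825 and circRNA.35865 and the split of the gene into 3 stretches were chosen after their values were seen, as were the end at 96737561 and the stretch that starts at 96735685. 1 of the listed genes is not reported here.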

Additional observations from a re-analysis of the deposited data

How the results depend on the processing

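The Tenm4 log2 change was negative under all 14 alternatives run. It was -1.06 to -1.53 with each library left out (-1.06 without control replicate 2). The count of lower circles was 22 of 22 in the reported fit. It was 21 of 22 without IL-1β replicate 1 and also without IL-1β replicate 2. It was 20 of 20 without control replicate 1 and 14 of 15 without control replicate 2, where fewer circles had enough reads. It was 20 of 22 with a replicate block and 38 of 49 with no filter. The median over fitted Tenm4 circles, -1.76, was -2.19 with the replicate block, -2.36 with no filter and -1.22 to -2.26 with a library left out. For the 12 named circles, 167 of 168 values stayed negative and 11 moved by more than the spread between replicates. The exception was circRNA.35837, which ranged from -1.12 to 0.13 with a library left out and was at 0.13 without control replicate 2.

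Counts of calls depended on the method. Of circRNAs, 3 passed in the reported edgeR fit, 61 with the replicate block (0.398% of those fitted, with 1 Tenm4 circle), 106 in DESeq2, 0 with at least 50 reads, 66 with at least 10, 61 with no filter, 0 with junctions within 5 nt summed, and 0 to 4 with a library left out (0 without either IL-1β library, 1 without control replicate 2). Of hosts, 0 passed in the reported fit, 20 with the replicate block (0.41%, with Tenm4 among them), 55 in DESeq2, 6 with at least 10 reads, 12 with no filter, and 0 to 2 with a library left out. The cause was not tested. With a library left out, the lone library is assumed to vary like the others. The libraries share a replicate number only: deviations of same-numbered libraries correlated at -0.03 over circRNAs and 0.03 over hosts with at least 200 reads. Circles with fewer than 20 reads were left out of the reported fit, where 0 reads in a library allow up to 3.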

Other observations

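The minus-strand circle inside Tenm4, circRNA.35858 (96795518 to 96799857), had 4 reads in control 2 and 5 in IL-1β 1 and 0 in the other libraries. Neither of its ends was shared with another Tenm4 circle.

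A second miRNA gene lies inside Tenm4 upstream of its first circle. The mature miR-6394 sits at chr7:96305740-96305760, 134 kb from the gene start, and 0 circles span it.

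The 28 circles that do not contain the stretch from 96735685 to 96737561 stood at 157 and 255 CPM in control and at 92.3 and 71.7 CPM with IL-1β, 2.51-fold lower between the means. The 21 circles that contain it were 2.45-fold lower. Circles ending at 96737561 were 1.94-fold lower, at 96778019 2.80-fold and at 96823946 2.96-fold, with no overlap between the groups at these 3 ends. Both IL-1β libraries lay below both controls in 17.2% of all fitted circRNAs, and the gene was chosen for being lower. At the less used ends 96896267 and 96436858 the groups overlapped.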
